A study of Mus musculus with 2 samples.

Results

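Genes of the interferon response were followed in donor T cells sorted from the spleens of mice with acute graft-versus-host disease. A list of 41 gene symbols was taken as given, and 39 of them were matched among the 32285 genes of the count matrices. Mx1 and Mx2 were not analysed here. C57BL/6 (H-2b) T cells and T cell-depleted bone marrow were given to lethally irradiated BALB/c (H-2d) recipients, so both groups shared the donor strain, the recipient strain, the irradiation and the marrow graft. The names of both libraries also hold the letters PBS, which the labels do not explain, so a vehicle given to both groups was not established. Live CD45+ H2Kb+ H2Kd- TCRβ+ cells, pooled over spleens, were sorted on day +7 or day +14 after transplantation. Each day gave 1 single-cell library on the 10x Genomics platform, and no untransplanted control was analysed here. With 1 library per day no spread between animals could be measured and no test was run. The difference between days therefore cannot be told apart from a difference between 2 libraries.

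Interferons are cytokines released in infection and alloreactivity. Type I interferon acts through a complex that holds STAT2 and IRF9 and binds the interferon-stimulated response element (ISRE), and interferon-gamma acts through the gamma-activated site (GAS) and induces IRF1. The genes induced code for sensors of viral nucleic acid, for proteins that block viral RNA and DNA, for the ubiquitin-like protein ISG15 and for large GTPases that attack the vacuoles of intracellular pathogens. The GTPases and Irf1 are known to respond strongly to interferon-gamma, whereas the IFIT and OAS genes and Isg15 are classic targets of type I interferon.

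Cells were kept with 500 to 7500 genes and at most 15% mitochondrial UMIs (unique molecular identifiers, 1 per captured transcript), which left 7179 cells at day +7 and 7794 at day +14 with a median of 9210 and 8144 UMIs. Only 20 barcodes occurred in both libraries. Gates were set on transcripts. The CD8 gate (a UMI of Cd8a or Cd8b1, none of Cd4 or Foxp3) held 5765 and 5929 cells, and the CD4 gate (a UMI of Cd4, none of Cd8 or Foxp3) held 454 and 692. The Foxp3+ gate, for the factor that defines regulatory T cells, held 40 and 39 cells. Its regulatory T cell genes were present beyond the gating gene, with Ikzf2 at 574 and 1022 CPM (a gene's UMIs per 1000000 UMIs of the gate), against 15.6 and 85.3 CPM in the CD8 gate. A T cell with UMIs of at least 3 of 10 proliferation genes was called cycling (4082 and 4441 cells), and a T cell with none of them non-cycling. A neutrophil gate, with at least 1% of UMIs from granule genes, held 43 and 76 cells that carried only 927 and 2313 CPM of T cell receptor and CD3 genes, below the 5991 and 7643 CPM of the CD8 gate. Scrublet called 0 doublets in each library and so had not worked, and doublets remain. Levels are sums of UMIs over a gate, so fewer responding cells and less RNA per cell cannot be told apart in them.

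Promoters of 5 members are printed first, because these genes stand for the patterns that follow. Isg15 and Oas3 were lower at day +14 in CD4 and Foxp3+ cells, and Gbp2, Igtp and Irf1 were higher at day +14 in non-cycling CD4 cells. Each sequence holds the 250 bases before an annotated start from RefSeq (build GRCm38.p6), read 5′ to 3′ along the gene. Capitals mark GAAA followed after 2 bases of any kind by GAAA, the core of an ISRE, or TTCNNNGAA, the core of a GAS. Both strands were searched, and on the other strand the first reads as TTTC, 2 bases and TTTC, while the second reads alike on both.

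Isg15, chr4:156200819-156201068, minus strand: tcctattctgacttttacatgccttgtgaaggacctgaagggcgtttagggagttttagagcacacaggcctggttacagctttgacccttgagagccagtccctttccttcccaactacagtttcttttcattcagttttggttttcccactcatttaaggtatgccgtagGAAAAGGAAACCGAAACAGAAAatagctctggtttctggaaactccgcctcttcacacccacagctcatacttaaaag
Oas3, chr5:120777660-120777909, minus strand: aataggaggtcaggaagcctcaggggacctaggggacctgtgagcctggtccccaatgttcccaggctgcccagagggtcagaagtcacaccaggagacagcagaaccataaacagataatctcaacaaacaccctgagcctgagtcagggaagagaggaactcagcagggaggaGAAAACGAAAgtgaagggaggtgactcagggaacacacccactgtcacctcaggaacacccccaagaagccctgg
Gbp2, chr3:142620413-142620662, plus strand: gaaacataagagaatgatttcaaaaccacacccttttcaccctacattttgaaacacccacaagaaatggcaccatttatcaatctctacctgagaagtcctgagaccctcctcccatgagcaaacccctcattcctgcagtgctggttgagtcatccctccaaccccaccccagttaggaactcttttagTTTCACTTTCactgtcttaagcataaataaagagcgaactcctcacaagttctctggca
Igtp, chr11:58199306-58199555, plus strand: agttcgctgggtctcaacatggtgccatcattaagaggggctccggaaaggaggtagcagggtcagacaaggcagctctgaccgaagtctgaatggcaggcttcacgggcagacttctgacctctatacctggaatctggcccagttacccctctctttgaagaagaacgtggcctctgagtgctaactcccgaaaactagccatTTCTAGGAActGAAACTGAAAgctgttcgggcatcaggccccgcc
Irf1, chr11:53769764-53770013, plus strand: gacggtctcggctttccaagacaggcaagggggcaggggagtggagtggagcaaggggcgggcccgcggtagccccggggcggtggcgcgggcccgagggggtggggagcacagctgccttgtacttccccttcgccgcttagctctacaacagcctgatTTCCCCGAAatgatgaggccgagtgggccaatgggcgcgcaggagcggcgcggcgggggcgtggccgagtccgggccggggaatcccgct

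The Isg15 window held 3 overlapping ISRE-like matches between 78 and 57 bases before the start, and the Oas3 window held 1 at 75 to 66 bases. Gbp2 had 1 ISRE-like match at 59 to 50 bases. In Igtp a GAS-like match at 45 to 37 bases stood next to an ISRE-like match at 34 to 25 bases, and in Irf1 a GAS-like match stood at 90 to 82 bases. The window of another annotated start of Irf1, not printed, held neither kind of match. Of the 39 members, 30 had at least 1 promoter in the table. An ISRE-like match was present for 14 of these 30 genes (46.7%), against 3.46% of all 27025 genes. A GAS-like match was present for 9 of the 30, or 30%, against 8.13% of all genes, and Bst2, Gbp7, Igtp and Oas1a had both, against 0.400% of all genes. These are matches of letters and were not tested as binding sites. The ISRE-like letters occurred both in Isg15 and Oas3, which were lower at day +14 than at day +7 in CD4 cells, and in Gbp2, Igtp and Stat2, which were higher at day +14 in non-cycling CD8 and non-cycling CD4 cells.

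Among these 3 T cell gates the levels of most members were ordered in the same way in each library, with Foxp3+ cells highest, CD4 cells between and CD8 cells lowest. The order CD8, CD4, Foxp3+ was followed by 32 of 39 members at day +7 and by 30 at day +14. No minimum level was asked for here, and the share of all genes in this order was not counted. Counted at a mean of at least 10 CPM and a ratio of at least 1.5-fold, 26 of 31 members were higher in Foxp3+ than in CD8 cells at day +7, where 16.8% of all genes were, and none was lower. At day +14 it was 22 of 28, against 21.3% of all genes. The share of all genes that were lower was not counted for comparisons between gates. The median log2 ratio of the members was 1.65 at day +7 and 1.12 at day +14, against 0.05 and 0.07 for all genes. All ratios are on the log2 scale with 1 CPM added to each value, and brackets give exact 95% intervals of counting error alone (for ratios, without the added CPM).

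Ifi27l2a, which codes for a small mitochondrial protein induced by interferon, had the most UMIs of all members in each T cell gate. Its level at day +7 was 523 CPM [517, 528] in CD8 cells, 2039 CPM [1998, 2080] in CD4 cells and 5392 CPM [5161, 5631] in Foxp3+ cells. At day +14 it was 426 CPM [421, 431], 1481 CPM [1447, 1515] and 2926 CPM [2720, 3142] in the same order. The 3 gates did not overlap on either day. The erythroid gate took cells with at least 0.05% of UMIs from red cell precursor genes, Car1, Ermap and Klf1 among them. These cells were below the neutrophil and macrophage limits, and the gate held 122 cells at day +7. Ifi27l2a stood there at 85.2 CPM at day +7, far below the T cell gates on that day. At day +14 the erythroid gate held 21 cells, with 51 Ifi27l2a UMIs among 149731.

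Iigp1, an immunity-related GTPase, differed most between gates. In CD8 cells it was nearly absent, with 1.26 CPM [1.00, 1.55] on the first day and 3.08 CPM [2.67, 3.53] on the second. Its level in CD4 cells was 6.86 CPM [4.69, 9.69] and 34.9 CPM [29.9, 40.5]. In Foxp3+ cells it reached 176 CPM [137, 224] and 307 CPM [243, 382], from 67 and 79 UMIs. Its relative Igtp was at 24.4, 42.7 and 174 CPM in CD8, CD4 and Foxp3+ cells at day +7, and at 33.2, 70.2 and 229 CPM at day +14. Isg20, an exonuclease that degrades viral RNA, was at 14.1, 38.2 and 271 CPM at day +7 and at 18.8, 51.4 and 144 CPM at day +14. Isg15 followed the same order, at 22.1, 63.3 and 216 CPM at day +7 and at 22.0, 28.1 and 85.5 CPM at day +14. Irf9, which joins STAT2 in the type I complex, was at 30.9, 34.7 and 36.9 CPM at day +7, and the interval in Foxp3+ cells [20.2, 61.9] covered both other levels.

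**Figure D1:**
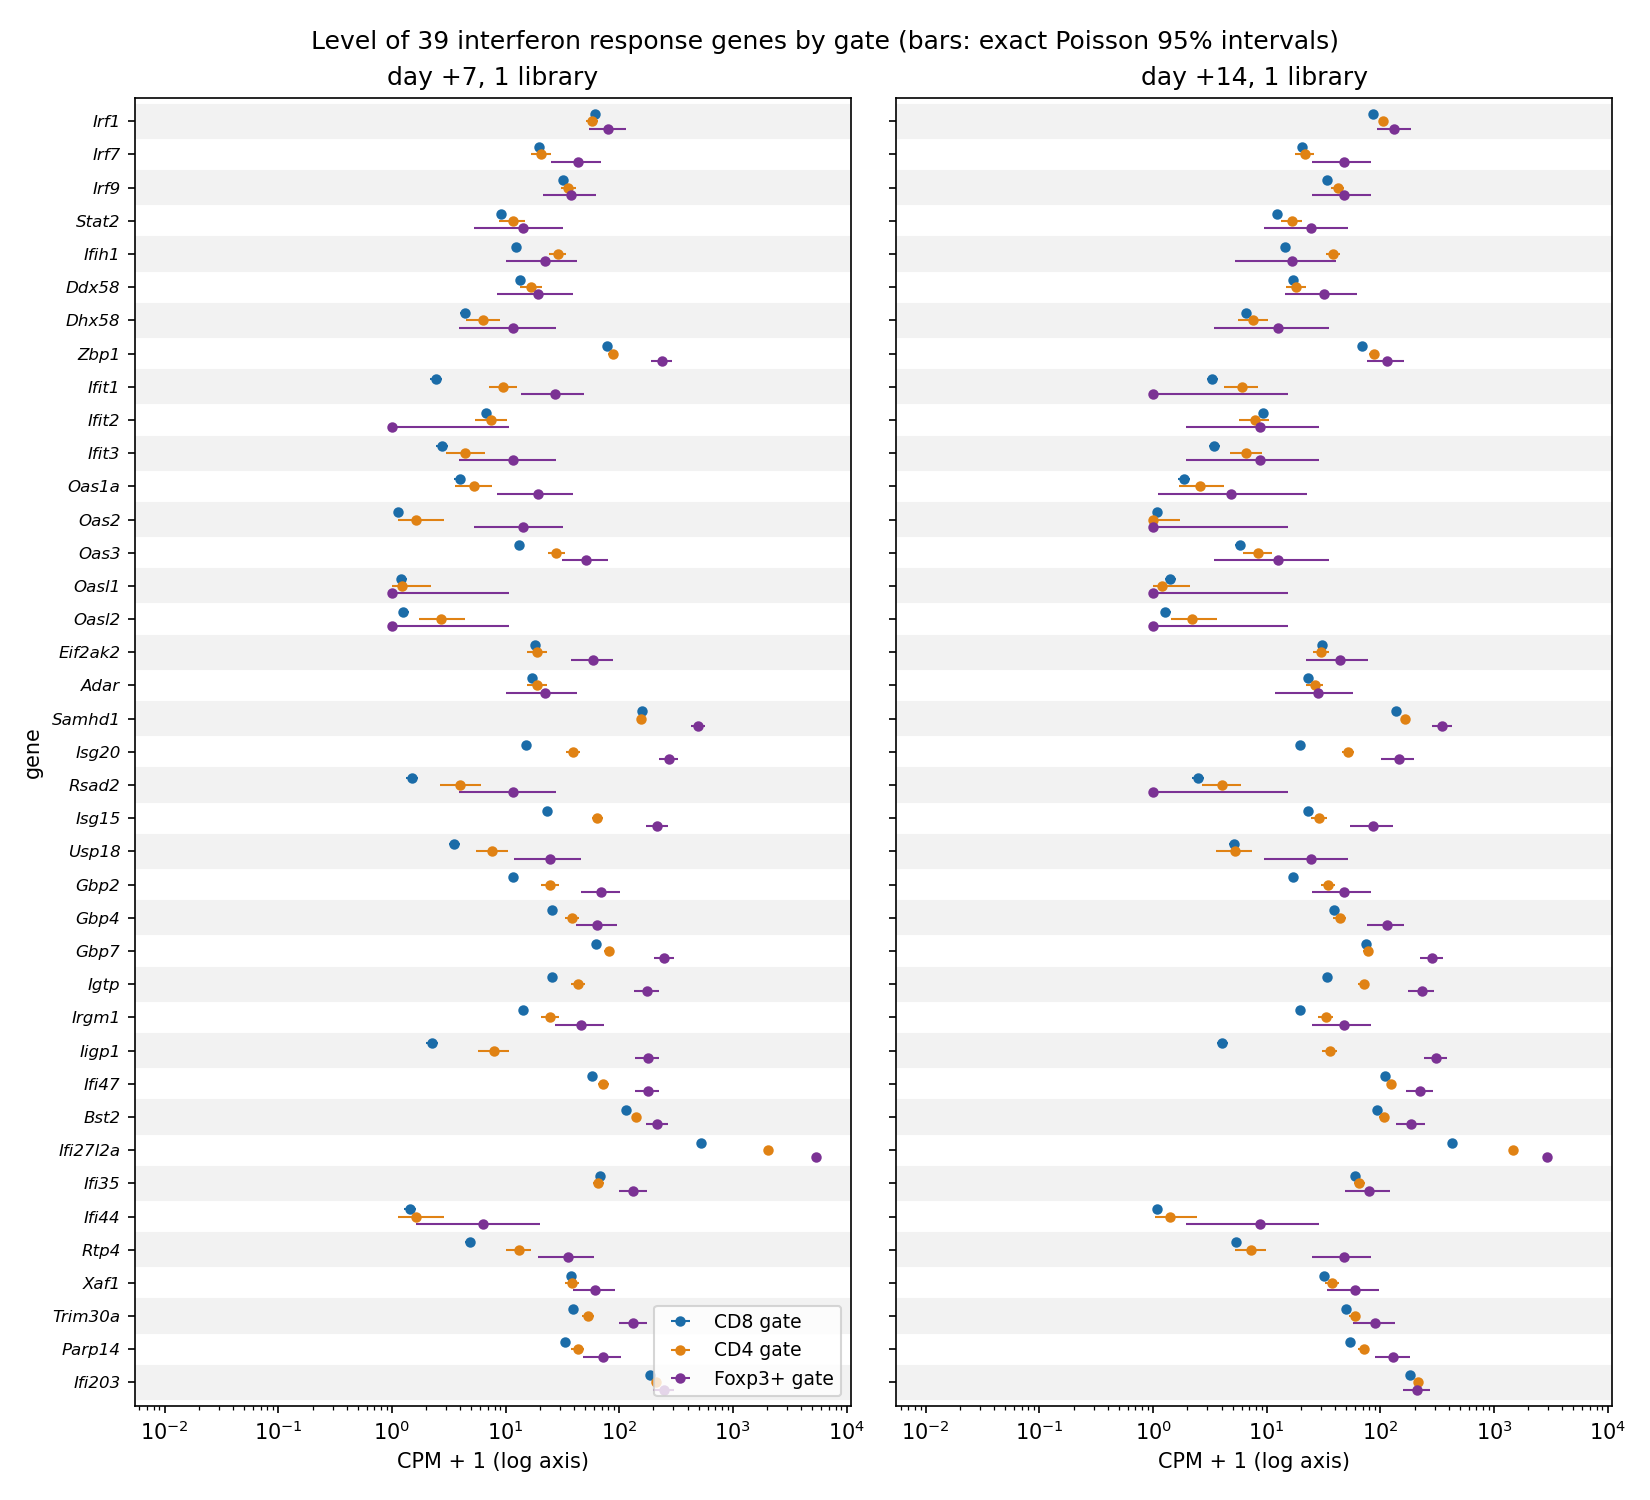
Level of each of the 39 genes in the CD8, CD4 and Foxp3+ gates at day +7 (left) and day +14 (right), as CPM + 1 on a log axis with exact Poisson 95% intervals. For most genes the Foxp3+ point lies to the right of the CD4 point and the CD4 point to the right of the CD8 point, with Ifi27l2a at 523, 2039 and 5392 CPM at day +7.

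Against CD4 cells, the Foxp3+ cells were higher for 24 of 31 members at day +7 (14.2% of all genes) and for 17 of 28 at day +14 (18.9% of all genes), with Ifih1, the RNA sensor MDA5, lower at day +14. Between conventional cells the gap was smaller and involved fewer genes. At day +7, 8 of 25 members were higher in CD4 than in CD8 cells (3.80% of all genes), namely Ifih1, Oas3, Isg20, Isg15, Gbp2, Igtp, Irgm1 and Ifi27l2a. At day +14 it was 7 of 26 (6.60% of all genes), with Iigp1 now among them and Oas3 and Isg15 no longer. No member was lower in CD4 than in CD8 cells on either day, but the share of all genes that were lower was not counted.

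Cycling cells differed in number between the gates, at 60.9% and 62.5% of CD8 cells, 46.9% and 31.7% of CD4 cells and 42.5% and 30.8% of Foxp3+ cells on the 2 days. Non-cycling CD8 cells were higher than cycling ones for 15 of 25 members at day +7 (8.37% of all genes) and 16 of 25 at day +14 (11.7% of all genes). None was lower, but the share of all genes that were lower was not counted here either. Ifi27l2a stood at 1021 CPM in non-cycling and 381 CPM in cycling CD8 cells at day +7. Cycling cells held more UMIs, with a median of 12684 against 6120 at day +7, so the same comparison per cell read otherwise. Irf1 had 0.805 UMIs per cycling cell and 0.558 per non-cycling cell at day +7, and Ifi47 had 0.711 and 0.595, whereas Ifi27l2a had 5.66 and 6.51. Set against non-cycling CD8 cells only, the Foxp3+ cells were still higher for 24 of 31 members at day +7 (26.2% of all genes) and for 16 of 29 at day +14 (28.6% of all genes). At day +14 that left Iigp1, Igtp, Gbp7, Rtp4, Isg20, Ifi27l2a, Usp18, Isg15 and Bst2 at least 2-fold higher in Foxp3+ cells, while Irf1, Irf9 and Stat2 were within 1.5-fold.

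Between the days, CD8 cells showed a moderate change in which Ifi47 stood out. Of 24 members at the level required, 4 were at least 1.5-fold higher at day +14, where 8.48% of all genes were, and 0 were lower, where 2.78% of all genes were. Ifi47, an immunity-related GTPase, went from 56.5 CPM [54.8, 58.4] to 110 CPM [107, 112], a log2 ratio of 0.94 [0.90, 1.01]. Eif2ak2, the RNA-activated kinase PKR that halts translation, went from 17.1 to 29.7 CPM (0.76 [0.69, 0.90]). Parp14, an ADP-ribosyltransferase, went from 32.5 to 52.5 CPM (0.68 [0.61, 0.77]) and the guanylate-binding protein gene Gbp4 from 24.7 to 38.1 CPM (0.61 [0.54, 0.72]). The median of all genes was itself at 0.19 in this gate, and the members had a median of 0.30. With median-ratio scaling, which shifts every CD8 ratio down by 0.22, Ifi47 alone stayed past 1.5-fold, at 0.73.

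All 6 GTPases at the level required were above 0 in CD8 cells, as were 74.1% of all genes. Gbp7, from 61.0 to 73.0 CPM, lay closest to the median of all genes. Irf1, the factor induced by interferon-gamma, went from 60.0 CPM [58.2, 61.9] to 85.5 CPM [83.3, 87.8], a log2 ratio of 0.50 that stayed under the 1.5-fold line. The abundant Samhd1, which depletes the nucleotides a virus needs for DNA synthesis, moved the other way, from 157 to 137 CPM (−0.20 [−0.24, −0.16]). Bst2, or tetherin, which holds budding virions at the membrane, went from 113 to 91.7 CPM (−0.30 [−0.35, −0.25]), and Ifi27l2a had a log2 ratio of −0.29 [−0.32, −0.27]. Isg15 stood at 22.1 CPM [21.0, 23.3] and 22.0 CPM [20.9, 23.2], with overlapping intervals. The OAS genes, which make the messenger that activates RNase L, were under the mean of 10 CPM in CD8 cells, with Oas3 at 12.2 and 4.81 CPM (−1.18 [−1.53, −1.15]) and Oas1a at 2.94 and 0.868 CPM. For both genes the intervals on the 2 days did not overlap.

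Restricted to non-cycling cells, the CD8 gate held 8 of 26 members that were higher (17.6% of all genes) and 1 that was lower (3.43% of all genes). Stat2 (9.98 to 21.2 CPM), Ifih1 (7.92 to 18.7 CPM), Isg20 (16.0 to 34.5 CPM), Gbp2 (14.1 to 28.2 CPM), Gbp4, Igtp, Ifi47 and Parp14 were the higher ones, and Oas3 was the lower one (19.8 to 6.95 CPM). Non-cycling CD8 cells had a median of 6120 UMIs at day +7 and 4738 at day +14. In the cycling gate, which pools all cycling T cells, 3 of 24 members were higher (7.39% of all genes), namely Eif2ak2, Ifi47 and Parp14, and 0 were lower (2.63% of all genes).

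In CD4 cells Iigp1, Ifi47, Igtp, Irf1, Parp14 and Eif2ak2 were higher at day +14, and Oas3 and Isg15 were lower. In all, 6 of 27 members were higher (14.3% of all genes) and 2 were lower (2.81% of all genes). The member with the highest ratio was Iigp1, from 6.86 to 34.9 CPM (2.19 [1.80, 2.94]). With cells of other lineages let into the gate, this log2 ratio was 1.11. Of the 7 GTPases 3 were higher, while Gbp2, Gbp4, Irgm1 and Gbp7 were within 1.5-fold, the last at 80.0 and 76.7 CPM. Irf1 went from 56.6 to 105 CPM, a log2 ratio of 0.88 [0.68, 1.11]. Ifi47, Parp14, Igtp and Eif2ak2 had log2 ratios of 0.78, 0.73, 0.71 and 0.66. Against them stood Oas3, from 27.0 CPM [22.5, 32.2] to 7.43 CPM [5.23, 10.2] (−1.73 [−2.43, −1.32]), and Isg15, from 63.3 CPM [56.3, 70.9] to 28.1 CPM [23.6, 33.2] (−1.14 [−1.47, −0.88]). At day +7 Igtp was at 42.7 CPM and Isg15 at 63.3 CPM, and a link between level and direction was not tested. Ifi27l2a had a log2 ratio of −0.46 [−0.51, −0.42]. The 10 neutrophil genes summed to 19.1 and 57.8 CPM in this gate, and their part in these ratios was not tested.

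Isg15 and Iigp1 kept their directions within cycling and within non-cycling CD4 cells. Isg15 was at 47.6 and 14.9 CPM in cycling and at 90.6 and 52.9 CPM in non-cycling CD4 cells, lower at day +14 in both. Iigp1 was at 6.42 and 14.2 CPM in cycling and at 9.61 and 74.2 CPM in non-cycling cells, higher at day +14 in both. Among cycling CD4 cells, 3 of 27 members were higher (Irf1, Iigp1 and Ifi47, against 10.8% of all genes) and 3 were lower (Oas3, Isg15 and Ifi27l2a, against 3.63% of all genes). Of the 7 GTPases 2 were higher there, and 3 had ratios below 0, with a median of 0.04 for the 7 and 0.13 for all genes. Among non-cycling CD4 cells, 11 of 32 members were higher (25.9% of all genes) and 5 lower (7.27% of all genes). In these non-cycling cells 5 of the 7 GTPases were higher, with Gbp2 at 26.1 and 55.9 CPM, Gbp4 at 28.8 and 65.1 CPM and Igtp at 49.4 and 104 CPM. The lower ones were Isg15, Oas3, Rtp4, Rsad2 (or viperin) and Usp18, the enzyme that removes ISG15 and restrains the type I receptor, which went from 12 UMIs to 4. For Rsad2 the interval of the ratio included 0. Over the 5 gates that share no cell, compared below, the interval lay below 0 in 4 for Oas3 and in 1 for Rtp4. The intervals of these genes in non-cycling CD4 cells may therefore also include 0. Only 115 and 228 cells entered this comparison.

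Among the T cell gates, Foxp3+ cells had the highest levels of most members and the widest intervals, from 379804 and 257388 UMIs. Among 32 members, 6 were higher at day +14 (27.7% of all genes) and 8 were lower (13.3% of all genes). Isg15 went from 216 CPM [172, 268] to 85.5 CPM [53.6, 129], a log2 ratio of −1.33 [−2.09, −0.64]. Zbp1, a sensor of Z-form nucleic acid that can trigger necroptosis, went from 234 CPM [188, 288] to 113 CPM [75.5, 162], and Isg20 from 271 CPM [221, 329] to 144 CPM [101, 198]. Ifi27l2a had a log2 ratio of −0.88 [−1.01, −0.76]. Ifit1, which binds foreign RNA caps, had 10 UMIs at day +7 and 0 at day +14, a level at least 2.26-fold lower against a floor of 3 UMIs. Iigp1 (0.80 [0.31, 1.29]), Parp14 (0.84 [0.07, 1.64]) and Gbp4 (0.82 [0.0033, 1.68]) were higher. For Stat2, Ddx58 and Irf1, also past 1.5-fold, and for the lower Oas1a and Ifi35, the interval of the ratio included 0. Which cells entered the gate moved these counts. With UMIs of Cd8 allowed, 10 members were higher and 2 lower, and with 2 UMIs of Foxp3 required, 13 were lower. The shares of all genes under these settings were not counted.

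**Figure D2:**
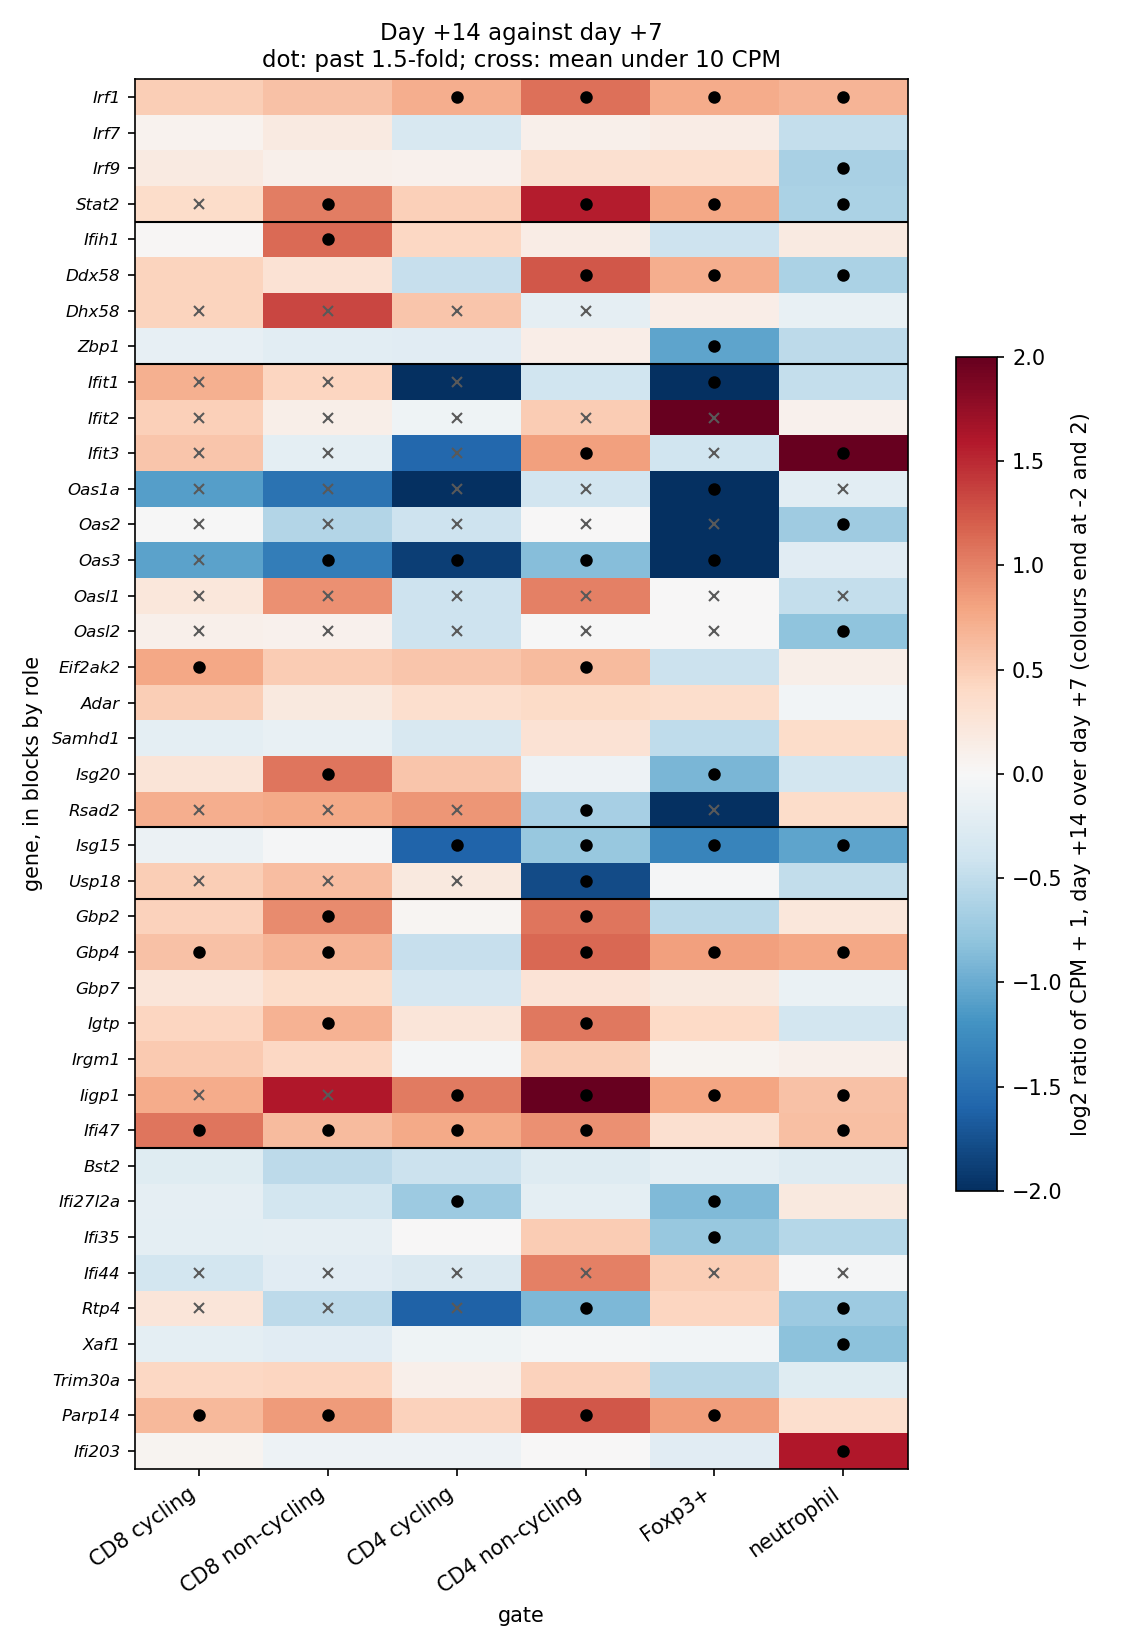
Log2 ratio of day +14 over day +7 for the 39 genes (rows, in blocks by role) in 6 gates (columns), red for higher and blue for lower at day +14. The GTPase block from Gbp2 to Ifi47 is mostly red, with Iigp1 reaching 2.83 in non-cycling CD4 cells, and Oas3 and Isg15 are blue or near 0 in every column.

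Directions were compared over 5 T cell gates that share no cell, namely cycling and non-cycling CD8 cells, cycling and non-cycling CD4 cells and Foxp3+ cells. All of them came from the same 2 libraries and so are not independent of each other. In all 5, 8 of 39 members had a ratio above 0 (Irf1, Irf9, Stat2, Adar, Igtp, Iigp1, Ifi47 and Parp14) and 6 had a ratio below 0 (Oas1a, Oas3, Isg15, Bst2, Ifi27l2a and Xaf1). Of the 24 members at a mean of at least 10 CPM in all 5 gates, 6 were above 0 in all 5, against 29.6% of 5691 genes, and 4 were below, against 8.91%. The median of all genes was itself above 0, between 0.13 and 0.20 in these gates. Above that median in all 5 gates were 5 of the 24 members (Irf1, Adar, Igtp, Ifi47 and Parp14), against 15.8% of all genes, and below it were 7 (Irf7, Zbp1, Isg15, Bst2, Ifi27l2a, Xaf1 and Ifi203), against 19.9%. The members above 0 in all 5 gates thus made up no larger a share than among all genes. The counting interval stayed above 0 in all 5 gates for Iigp1 and Parp14, and below 0 in all 5 for Ifi27l2a. Xaf1 kept its sign with small ratios, between −0.22 and −0.04. The other 25 members changed sign between gates or were at 0 in 1 of them, among them Zbp1 (−1.05 to 0.13) and Isg20 (−0.91 to 1.06). The Ifit genes did not move as a block. Ifit1 and Ifit3 were above 0 in 2 gates and below 0 in 3, at levels mostly under 10 CPM.

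Summed by role, the 7 GTPases went from 192 to 292 CPM in CD8 cells (0.61 [0.57, 0.64]), from 286 to 415 CPM in CD4 cells (0.54 [0.44, 0.64]) and from 950 to 1247 CPM in Foxp3+ cells (0.39 [0.17, 0.61]). The median log2 ratio of all genes was 0.19, 0.16 and 0.16 in these gates. Ifi47 gave the largest part of the CD8 rise, from 3823 to 7204 UMIs. The median of the 6 GTPases at the level required in CD8 cells was 0.52. The 4 transcription factors had summed log2 ratios of 0.35, 0.59 and 0.54 in the same gates. Isg15 with Usp18 was at 24.7 and 26.1 CPM in CD8 cells, at 69.9 and 32.3 CPM in CD4 cells and at 240 and 109 CPM in Foxp3+ cells. The log2 ratio of this pair was −1.11 [−1.39, −0.84] in CD4 cells and 0.08 [−0.02, 0.18] in CD8 cells. Whether the gates differed in their change could not be tested with 1 library per day.

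**Figure D3:**
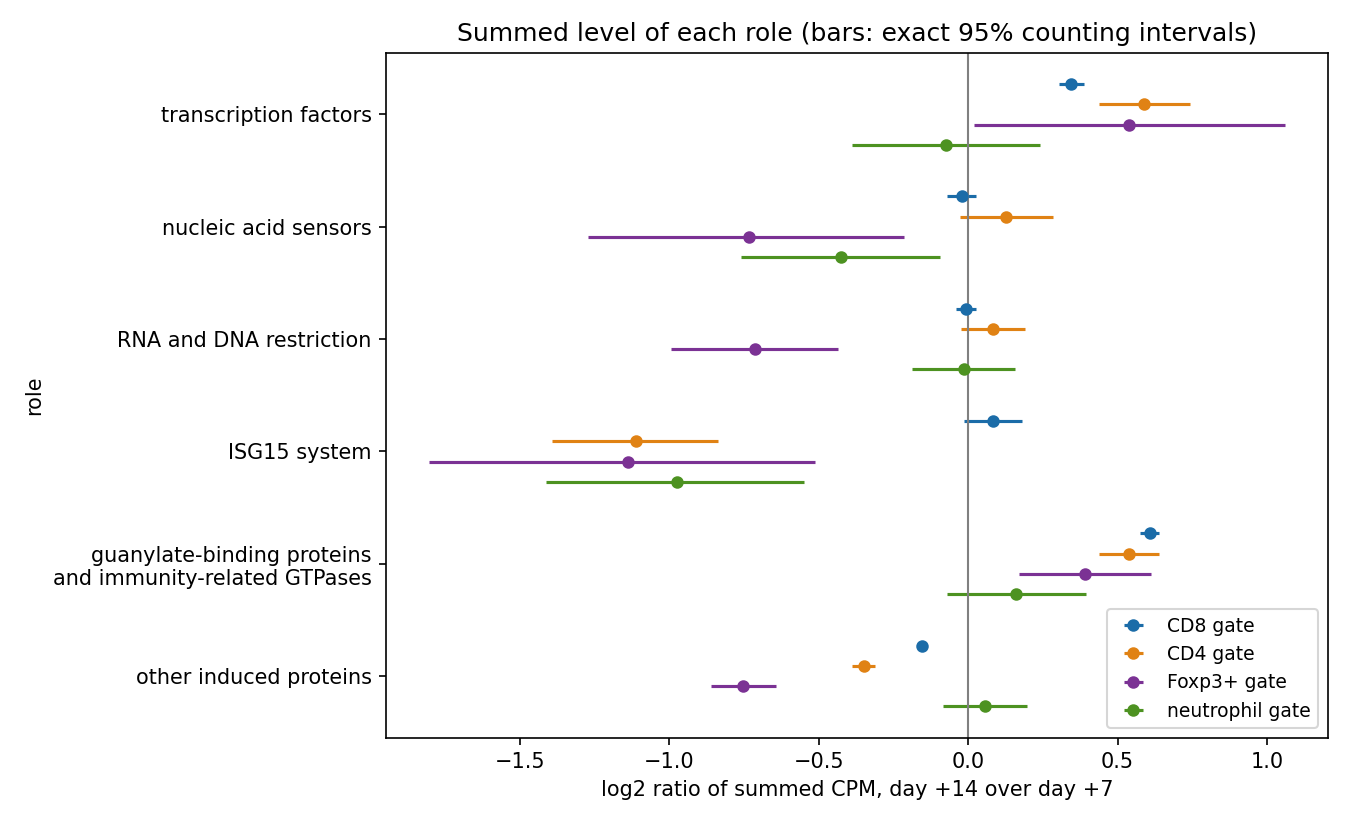
Log2 ratio of the summed CPM of each role, day +14 over day +7, in 4 gates, with exact 95% counting intervals. The GTPases lie above 0 in the CD8, CD4 and Foxp3+ gates, at 0.61, 0.54 and 0.39, and Ifi47 gives the largest part of the rise in CD8 cells. Isg15 with Usp18 lies at −1.11 in CD4 and −1.14 in Foxp3+ cells and at 0.08 in CD8 cells. The sum of the other induced proteins is mostly Ifi27l2a in CD4 and Foxp3+ cells.

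The share of cells with a UMI differed widely between members. After each cell was thinned to 4000 UMIs, 22 of 39 members were found in at least 5% of CD8 cells at day +7 and 8 in under 1%. Ifi203 was found in 53.3%, Samhd1 in 47.7%, Iigp1 in 0.406% and Oas2 in 0.0882%. CD8 cells had a UMI of 4.44 ± 2.43 members (mean ± SD over 5667 cells) at day +7 and 4.98 ± 2.71 (5451 cells) at day +14. Thinning left out 98 and 478 shallower cells. As a measure of free RNA, S100a8, a granulocyte gene that T cells should lack, had a UMI in 3.46% [2.998, 3.97] and 6.18% [5.56, 6.85] of the same cells, and 14 and 16 members were found in no more cells than that. At least 2 of the 10 neutrophil genes were found in 1.08% [0.82, 1.38] and 1.78% [1.45, 2.17] of them. A UMI of at least 2 of the 7 GTPases was carried by 16.5% [15.6, 17.5] of the day +7 CD8 cells and by 28.0% [26.8, 29.2] of those of day +14. In the CD4 gate it was 22.7% [18.8, 26.9] and 34.4% [30.2, 38.8]. In the Foxp3+ gate it was 66.7% [49.8, 80.9] of 39 cells and 80.0% [61.4, 92.3] of 30 cells. Thinning left out 13 and 198 cells of the CD4 gate and 1 and 9 of the Foxp3+ gate. The day +14 shares therefore leave out more of the shallow cells.

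A group of 10 classic antiviral members (Isg15, Usp18, Ifit1, Ifit2, Ifit3, Oas1a, Oas3, Rsad2, Rtp4 and Irf7) was chosen after values were seen. At least 1 of them was found in 23.3% [22.2, 24.4] and 22.8% [21.7, 23.9] of CD8 cells and in 31.1% [26.8, 35.6] and 21.5% [17.9, 25.3] of CD4 cells. Cells with at least 5 of the 10 were rare, at 13 of 5667 and 16 of 5451 CD8 cells, or 0.229% [0.122, 0.392] and 0.294% [0.168, 0.476]. Before thinning, these cells had median UMIs of 6249 and 5322.5, against 9370 and 9281 in the CD8 gate. They were counted after thinning to equal depth, so the part of depth was not tested by these medians. Neutrophil genes made at most 0.0211% of their UMIs, where the median of the CD8 gate was 0 on both days. The gate itself limits neutrophil genes, and the part of doublets or free RNA in these cells was not tested. Over pairs of members seen in at least 5% of thinned cells, the median Pearson r was 0.04 and 0.05 in CD8 cells (231 and 253 pairs), which in counts this sparse is no finding.

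**Figure D4:**
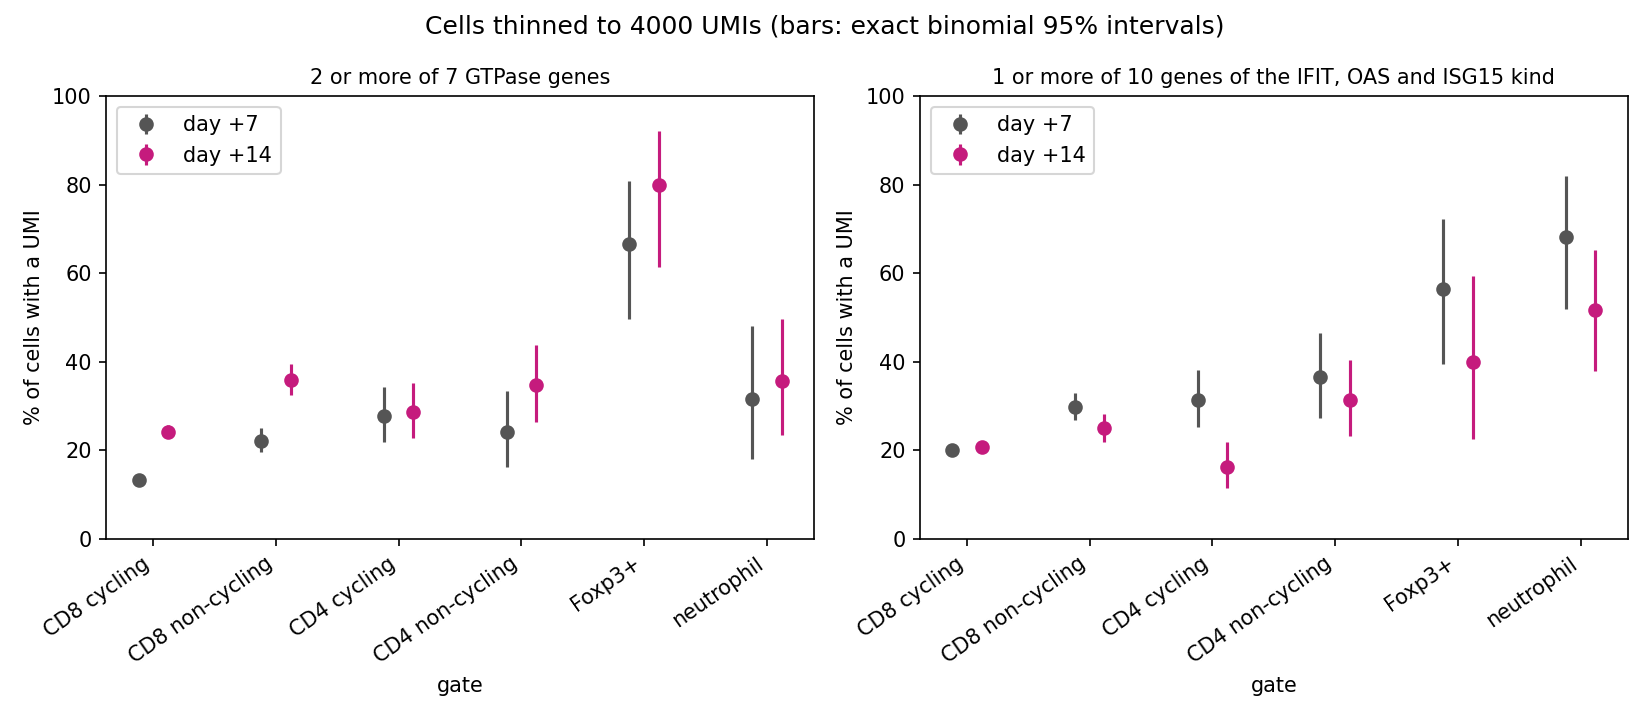
Percent of cells, thinned to 4000 UMIs, with a UMI of at least 2 of the 7 GTPases (left) and of at least 1 of 10 classic antiviral members (right) in 6 gates at day +7 and day +14, with exact binomial 95% intervals. The 10 antiviral members were chosen after values were seen. The left share is higher at day +14 in both kinds of CD8 cell, at 13.2% and 24.2% in cycling and 22.2% and 35.8% in non-cycling cells, while the right share in cycling CD4 cells is 31.5% and 16.2%. Thinning left out more cells at day +14 than at day +7 in each of the 6 gates.

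In cells of the neutrophil gate many members were higher than in CD8 cells. Against CD8 cells, 24 of 33 members were higher there at day +7 (16.4% of all genes) and 19 of 36 at day +14 (15.6% of all genes). Oasl2, an OAS-like protein, stood at 124 CPM [101, 151] and 71.1 CPM [54.0, 91.9] in the neutrophil gate and at 0.251 and 0.274 CPM in CD8 cells. The erythroid gate held 115 of the 256 Oasl2 UMIs of the day +7 library, and the neutrophil gate 98. The neutrophil gate, with 0.599% and 0.975% of the kept cells, held 32 of the 59 Oas2 UMIs of the day +7 library. Ifi203, a DNA-binding protein of the PYHIN family, was lower than in CD8 cells, at 33.0 and 102 CPM against 185 and 183 CPM.

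Between the days, 6 of 36 members were higher in the neutrophil gate (22.9% of all genes) and 8 lower (7.08% of all genes). Isg15 went from 148 CPM [123, 178] to 71.1 CPM [54.0, 91.9] (−1.05 [−1.54, −0.60]), the same direction as in CD4 and Foxp3+ cells. Oasl2, Xaf1 and Rtp4 were also lower with intervals under 0, at −0.80, −0.82 and −0.72. Ifi203 (1.60 [0.97, 2.32]), Ifit3 (1.99 [0.73, 3.90], from 5 to 23 UMIs), Irf1 (0.68 [0.17, 1.22]) and Ifi47 (0.61 [0.07, 1.18]) were higher with intervals above 0. These intervals do not cover the spread between cells. Among thinned cells of the gate, Ifit3 was found in 1 of 41 (2.44% [0.06, 12.9]) and 3 of 56 (5.36% [1.12, 14.9]), with overlapping intervals. Ifi203 was found in 9.76% and 23.2% of them, Irf1 in 26.8% and 21.4%, and Ifi47 in 26.8% on both days. A rise in Ifit3 over the cells of this gate was therefore not shown. T cell receptor and CD3 genes went from 927 to 2313 CPM in this gate and Cd8a from 34.2 to 110 CPM, and Ifi203 is a gene with more RNA in CD8 cells. The neutrophils had a median of 13812 UMIs at day +7 and 7274 at day +14, and the part of these values in the ratios was not tested.

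A further 73 genes of the pathway, from interferons and receptors to other induced genes, were counted in the CD8 gate. Of 46 at the level required, 7 were higher (8.48% of all genes) and 3 lower (2.78% of all genes). Their median log2 ratio was 0.18, against 0.19 for all genes. The 3 lower ones were the membrane proteins of the Ifitm family, which block virus entry. Ifitm1 went from 459 to 16.3 CPM, Ifitm2 from 241 to 4.61 CPM and Ifitm3 from 114 to 5.08 CPM. Lgals3bp went from 20.9 to 54.5 CPM, Nlrc5, the activator of MHC class I genes, from 24.2 to 46.4 CPM, and Ifnar2, a chain of the type I interferon receptor, from 25.4 to 47.8 CPM. Of the 4 receptor genes at the level required, 2 were higher, and of the 5 interferon genes listed only 1 reached it.

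Genes of the GBP, IRG, OAS and IFIT families have closely similar copies, and how reads shared by copies were counted was not examined, so their levels are less certain than those of single genes. Markers of other cell types were present at low levels in the T cell gates. The 10 neutrophil genes summed to 38.1 and 46.8 CPM in CD8 cells and to 31.6 and 46.6 CPM in Foxp3+ cells, above the level of some members, and none of the 10 was at 0 in CD8 cells. In CD8 cells B cell genes summed to 22.2 and 3.14 CPM, genes of plasmacytoid dendritic cells to 18.6 and 19.6 CPM and macrophage genes to 8.55 and 10.8 CPM. The part of these cells or of their free RNA in the levels was not tested. In the Foxp3+ gate all 5 macrophage genes were at 0 on both days.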

How the data were processed

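Single-cell suspensions of sorted splenic donor T cells were run as 1 10x Genomics library per day. The authors mapped the reads and counted UMIs with Cell Ranger 6.1.2 against mm10, per the submitters' processing notes, and deposited filtered matrices of raw UMI counts per gene and barcode with no normalization. The list of members, their grouping by role, the other pathway genes and the gates were chosen with earlier results of these data known. Any member could be named. Of the other pathway genes, the 6 with the largest absolute ratio in CD8 cells at a mean of at least 10 CPM were named.

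Barcodes with 500 to 7500 genes and at most 15% mitochondrial UMIs were kept. T cells had UMIs of at least 2 of 6 T cell receptor and CD3 genes, under 1% of UMIs from neutrophil genes, and under 0.05% each from macrophage and erythroid genes. UMIs were summed per gate and day and divided by the gate's total (CPM). Exact Poisson, binomial and conditional binomial 95% intervals cover counting error only, not the spread between animals. A ratio of (CPM + 1) of at least 1.5-fold at a mean of at least 10 CPM was counted, beside the share of all genes past the same line. The calculation of ratios and intervals was run on simulated counts, drawn independently at the depth of the CD8 gate. Spread between cells and the smaller gates were not simulated. Cells were thinned without replacement to 4000 UMIs for shares of cells. Promoter letters came from RefSeq. Python 3.11.15, numpy 2.4.6, scipy 1.17.1, pandas 2.3.3, scanpy 1.11.5 (Scrublet) and matplotlib 3.10.9 were used. The sort date was taken from the sample titles. The labels also describe a sort on day +7 for the day +14 sample, and this was not resolved.

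Alternatives were median-ratio scaling, added values of 0.1 and 5 CPM, no filter or a mean of 50 CPM, a 2-fold line, a mitochondrial limit of 5%, a mean of CPM per cell, 2 UMIs to enter a gate, no limit on other lineages, neutrophil genes at 3% of UMIs, and the highest Scrublet scores left out. Equal weights for cycling and non-cycling cells, Foxp3+ cells with Cd8 UMIs, comparison with non-cycling CD8 cells and all alternatives for the counts between gates were chosen after seeing the data.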

Additional observations from a re-analysis of the deposited data

Results flagged for a closer look

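Iigp1 moved in opposite directions in different sets of cells between day +7 and day +14. Its log2 ratio was 2.19 in CD4 cells and 0.80 in Foxp3+ cells, and −1.31 over all kept cells, where it went from 28.4 CPM [27.2, 29.5] to 10.8 CPM [10.1, 11.6]. The difference was not tested, since each day had 1 library. Of the 2460 Iigp1 UMIs of all kept cells at day +7, 1887 (76.7% [75.0, 78.4]) lay in the erythroid gate, at 520 CPM over 122 cells. At day +14 the erythroid gate held 21 cells and 17 of 908 Iigp1 UMIs (1.87% [1.09, 2.98]). Other GTPases were also high in these cells at day +7, with Gbp2 at 220 CPM, Igtp at 271 CPM and Ifi47 at 316 CPM. The part of these cells in the ratio over all kept cells was not tested. Erythroid genes summed to 1.29 CPM in the CD4 gate at day +7 and were at 0 at day +14, and to 0 and 3.89 CPM in the Foxp3+ gate. With cells of other lineages let into the CD4 gate, the log2 ratio of Iigp1 there was 1.11.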

How the results depend on the processing

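No paired analysis was possible because each day had 1 library. Counts of members higher or lower at day +14 moved as follows. The shares of all genes under the other settings were not counted, so the members cannot be set against them. With median-ratio scaling 1 member was higher in CD8 and 1 in cycling cells. Without a filter on low values, 2 were lower in CD8, 6 in CD4 and 2 in cycling cells. At a mean of 50 CPM, 1 was higher in CD8 and 1 in cycling cells, 0 were lower in CD4 and 5 in Foxp3+ cells, and 3 were higher and 3 lower in neutrophils. At 2-fold, 0 were higher in CD8, 1 in CD4, 0 in Foxp3+, 0 in cycling and 2 in neutrophil cells, with 5 lower in Foxp3+ cells and 1 in neutrophils. With a mean of CPM per cell, 8 were higher in CD8 cells, and 3 were higher and 4 lower in neutrophils. With 2 UMIs for a gate, 13 were lower in Foxp3+ cells and Ddx58 turned to −0.35. With Cd8 UMIs allowed, 10 were higher and 2 lower in Foxp3+ cells, and Isg20 turned to 0.20. Without limits on other lineages, 1 was lower in cycling cells. With a mean of CPM per cell, Gbp4 turned to −0.31 and Rtp4 to 0.20 in neutrophils. Between gates, without a filter 15 and 11 members were higher in CD4 than CD8 cells at day +7 and day +14, and 23 and 25 in non-cycling than cycling CD8 cells. At 50 CPM these were 1 and 2, and 5 and 6, with 13 and 14 higher in Foxp3+ than CD8 cells. At 2-fold, 2 and 3 were higher in non-cycling CD8 cells. The rise in the share of CD8 cells with 2 GTPases was 11.5 points at 4000 UMIs and 6.74 points at 2000 UMIs. Apart from effects fixed by the construction of a setting, the cause was not tested. Depth limited the Foxp3+ gate (40 and 39 cells) and the neutrophil gate (43 and 76 cells) most. Over all other settings, 143 counts stayed within 1.5 times, and 387 ratios of single genes kept their direction and side of the line while 68 kept only their direction.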
